A study of Mus musculus with 2 samples.

Results

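The 9 immediate early and stress response genes, which cells switch on within minutes of a signal or an insult, were followed across the cell classes of mouse 4T1 mammary tumours. They are the AP-1 subunits Fosb, Jun and Junb, the zinc finger transcription factors Egr1 and Egr2, the transcription factor Myc, the phosphatases Dusp1 and Dusp2, and Ier3. The members were taken by name from each deposited table, and they are 9 of the 468 genes measured in any tag. The panel read 8 of them in all 4 sample tags. Egr2 is not in the table of tag 1, which was counted against another reference, so every Egr2 value comes from tags 2 to 4.

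Female BALB/c mice, 8 weeks old, carried orthotopic tumours of 4T1, a BALB/c mammary carcinoma line, in the mammary fat pad, and mice were divided into treatment arms at day 7, with tumours of about 70 mm3. Each of the 2 samples is 1 cartridge that pools 2 treatment arms, told apart by sample tags. The anti-PD-1 pool (tags 3 and 4) holds mice given anti-PD-1 (clone RMP1-14) and mice given anti-PD-1 with anti-Siglec-E. The no-anti-PD-1 pool (tags 1 and 2) holds mice given anti-Siglec-E and mice given a rat IgG2a isotype control. There were 6 mice per arm, and 2 tumours per arm went into the single-cell measurement. No label ties a tag to its arm, so tags are kept apart and not assigned. All tumours were minced and dissociated with a tissue reagent, red cells were lysed, dead cells were removed, and EPCAM-positive and EPCAM-negative cells were recombined at 1 to 4, so class shares follow that mix. No undissociated tumour was analysed here, so RNA made in the tumour and RNA made during dissociation cannot be told apart in any value below.

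Immediate early genes need no new protein for their transcription: kinase cascades act on factors already bound at their promoters, such as serum response factor at CArG boxes and CREB at cyclic AMP response elements. Fosb pairs with Jun or Junb to form AP-1, which binds TGANTCA. Egr1 and Egr2 bind GC-rich sites, and Egr2 is known for restraint of T cell activation. Dusp1 and Dusp2 remove phosphates from MAP kinases and so damp the cascade that induced them, Ier3 modulates survival and ERK signalling, and Myc drives growth. In tumour leukocytes the same genes are read as marks of recent stimulation, and tissue dissociation is known to induce them.

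The bases ahead of 4 members are shown because they stand for the patterns found, Fosb and Ier3 being high in 4T1-like cells, Egr2 in macrophage-like and monocyte-like cells, and Dusp1 at like levels in 4T1-like and neutrophil-like cells; they were chosen after the values were seen. Each is the 250 bases before the RefSeq start site on GRCm38.p6, written 5′ to 3′ on the gene's strand, with motif matches in capitals. The motifs searched on both strands were TGACGTCA (the cyclic AMP response element), TGACG (its core, which lies within it), TGANTCA (AP-1), the CArG box and the kappa B site.
Dusp1: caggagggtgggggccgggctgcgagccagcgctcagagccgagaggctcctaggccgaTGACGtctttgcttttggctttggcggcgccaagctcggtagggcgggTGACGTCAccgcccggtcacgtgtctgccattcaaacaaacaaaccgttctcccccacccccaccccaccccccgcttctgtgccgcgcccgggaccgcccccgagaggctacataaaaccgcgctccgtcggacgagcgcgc
Egr2: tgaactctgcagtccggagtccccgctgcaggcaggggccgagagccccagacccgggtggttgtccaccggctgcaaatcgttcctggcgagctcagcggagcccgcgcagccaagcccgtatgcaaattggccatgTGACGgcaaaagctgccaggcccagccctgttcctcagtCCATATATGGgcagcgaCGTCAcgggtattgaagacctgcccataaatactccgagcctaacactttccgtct
Fosb: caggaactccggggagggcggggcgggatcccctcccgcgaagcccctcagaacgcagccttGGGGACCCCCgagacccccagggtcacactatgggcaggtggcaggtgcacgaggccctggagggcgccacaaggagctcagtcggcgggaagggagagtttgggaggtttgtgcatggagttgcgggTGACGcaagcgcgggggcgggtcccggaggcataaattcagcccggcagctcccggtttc
Ier3: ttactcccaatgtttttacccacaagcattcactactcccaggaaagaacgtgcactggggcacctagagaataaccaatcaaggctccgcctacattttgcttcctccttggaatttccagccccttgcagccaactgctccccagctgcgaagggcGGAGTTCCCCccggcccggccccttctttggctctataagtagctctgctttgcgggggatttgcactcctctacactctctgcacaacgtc
The windows lie at chr17:26508473-26508722, minus strand (Dusp1), chr10:67537620-67537869, plus strand (Egr2, 1 of 5 start sites listed), chr7:19310046-19310295, minus strand (Fosb), and chr17:35821463-35821712, plus strand (Ier3). The Dusp1 capitals hold TGACGTCA, which starts 143 bases before the start site, and a further TGACG match at 191. The Egr2 capitals hold a CArG box at 73 between TGACG matches at 112 and 56. Fosb has a kappa B match upstream of a TGACG match at 60, and Ier3 has a kappa B match at 92. Of all 32851 windows of this length, 1.55% hold TGACGTCA, 17.8% TGACG, 6.75% TGANTCA, 1.47% a CArG box and 7.25% a kappa B match. Windows were listed for 7 members, and TGANTCA was in none of them. A match describes these letters and is no evidence of binding.

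The 4 tables held 12018 cells, of which 10774 entered 1 of 10 classes by marker genes, none of them a member. Neutrophil-like cells (S100a8 with S100a9, Cxcr2 or Cxcr1, or S100a8 alone at a higher share) were 8545 of these, 4T1-like cells (Lgals1 and Lmna) 733, T cell-like cells (Cd3 and T cell receptor genes) 679 and macrophage-like cells (C1q genes or Trem2, with Lyz2) 275. Monocyte-like (Ccr2, Lyz2), NK cell-like (Klra7, Eomes, Xcl1), dendritic-like (Flt3) and stromal-like (Il33, Cd34) cells numbered 235, 110, 82 and 61, and B cell-like and mast or basophil-like cells 45 and 9. The 4T1 label was checked against Epcam, which the gate did not use and tag 1's table does not hold: in 4T1-like cells its level per 1000000 molecules outside S100a8 and S100a9 stood at 12518 and 11355 in tags 3 and 4, and 10283 in tag 2. The median cell held 1262 to 1463 molecules of the 396 shared genes, depending on the tag. In all, 37 cell indices occurred in both cartridges, and leaving out those 74 cells changed no count of members.

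A level below is the sum of a gene's molecules over the cells of a class in 1 tag, in counts per 1000000 molecules (CPM) of the shared genes outside S100a8 and S100a9. S100a8 alone took 18.4% to 29.1% of all molecules, so its variation would otherwise move every other gene. Levels compare 1 gene between cells and not 1 gene with another, because the panel's amplicons differ in yield. With 1 sample per pool there is no test. A gene is called higher or lower between classes where the ratio was at least 2-fold the same way in every tag read, and between pools where both tags of one pool exceeded both of the other with the nearest pair at least 1.5-fold apart. Intervals are exact Poisson intervals at 95% and cover counting error only.

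**Figure D1:**
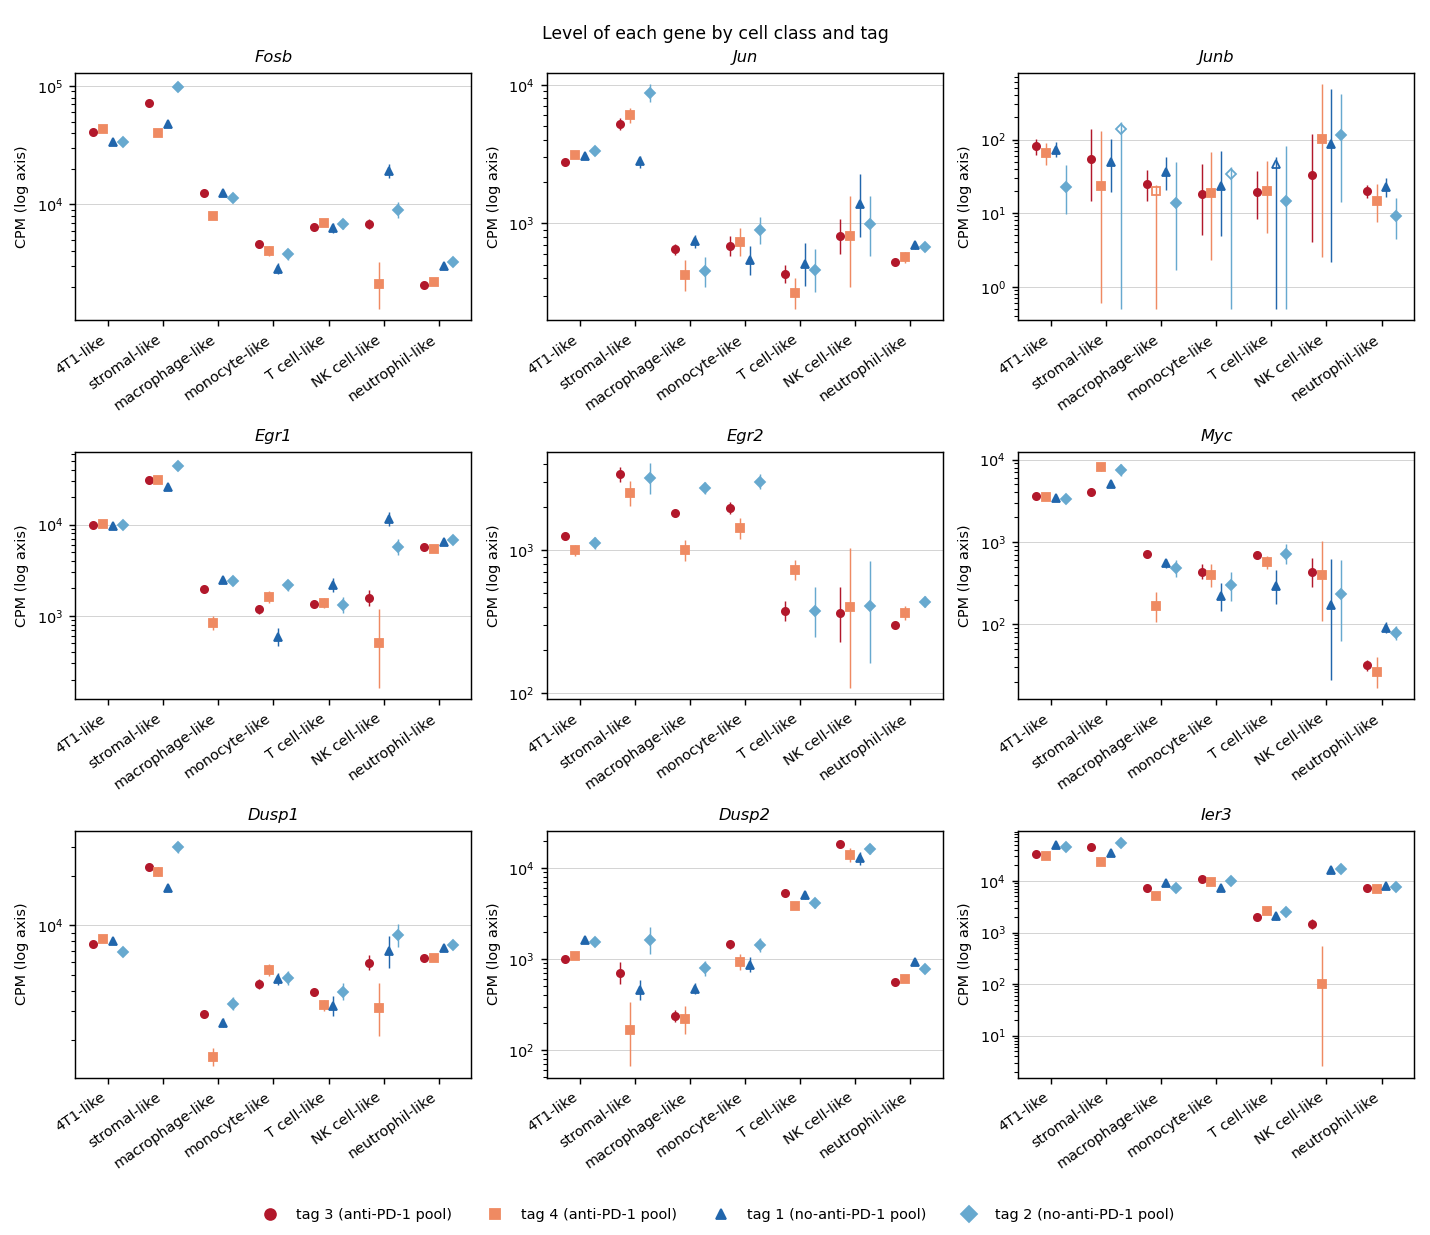
Levels of the 9 genes (CPM outside S100a8 and S100a9, log axis) in 7 cell classes, with tags 3 and 4 left of tags 1 and 2. Bars are 95% Poisson intervals and open points mark a count of 0, drawn at 3 molecules. Fosb, Jun, Ier3 and Myc stand highest in the 4T1-like and stromal-like classes in all 4 tags, and Dusp2 stands highest in NK cell-like cells, among the 7 classes drawn.

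The tumour cells carried the AP-1 subunits, Ier3 and Myc at levels well above those of neutrophils. Of the 9 members, 6 were higher in 4T1-like than in neutrophil-like cells (Fosb, Jun, Junb, Egr2, Ier3, Myc) and 0 were lower. Over all genes measured, 63.3% of 376 genes were called, 28.7% higher and 34.6% lower. The members' median log2 ratio was 1.80, against -0.24 over all genes.

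In 4T1-like cells Fosb, the AP-1 partner of the Jun proteins, was, in CPM, at 40669.9 and 43523 in tags 3 and 4, and 33426 and 33356 in tags 1 and 2. In neutrophil-like cells it was at 2079 and 2224 in tags 3 and 4, and 3004 and 3264 in tags 1 and 2. The classes did not overlap, and the log2 ratio was 3.85 (range over tags 3.35 to 4.29). In 4T1-like cells Jun was at 2778 and 3119 in tags 3 and 4, and 3057 and 3302 in tags 1 and 2. In neutrophil-like cells Jun was at 528 and 567 in tags 3 and 4, and 693 and 673 in tags 1 and 2. Its log2 ratio was 2.32 (range over tags 2.14 to 2.46), tight across tags. Junb was caught by few molecules, with 181 in all 4T1-like cells and 169 in all neutrophil-like cells. Its log2 ratio was 1.80 (range over tags 1.33 to 2.17). In tag 2 it rested on 8 molecules in 4T1-like and 11 in neutrophil-like cells, with overlapping counting intervals.

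In 4T1-like cells Ier3 was at 33695 and 30924 in tags 3 and 4, and 49899 and 45816 in tags 1 and 2. In neutrophil-like cells Ier3 was at 7363 and 7023 in tags 3 and 4, and 7815 and 7565 in tags 1 and 2. Every 4T1-like value lay above every neutrophil-like value, with a log2 ratio of 2.40 (range over tags 2.14 to 2.67). Myc had the largest ratio of the 9. In 4T1-like cells it was at 3628 and 3531 in tags 3 and 4, and 3449 and 3325 in tags 1 and 2, within a narrow band. In neutrophil-like cells Myc was nearly absent, at 31.9 and 26.6 in tags 3 and 4, and 90.8 and 78.7 in tags 1 and 2, and the log2 ratio was 6.13 (range over tags 5.25 to 7.05).

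The Egr factors and the phosphatases were closer between the classes. In 4T1-like cells Egr1 was at 9992 and 10218 in tags 3 and 4, and 9549.6 and 9758 in tags 1 and 2. In neutrophil-like cells Egr1 was at 5629.6 and 5399 in tags 3 and 4, and 6372 and 6821 in tags 1 and 2. The log2 ratio of 0.71 (range over tags 0.52 to 0.92) stayed under the 2-fold rule. Egr2 passed it. In 4T1-like cells Egr2 was at 1246 and 994 in tags 3 and 4, and 1119.5 in tag 2, against neutrophil-like cells at 301 and 365 in tags 3 and 4, and 435 in tag 2. Dusp1 levels overlapped. In 4T1-like cells Dusp1 was at 7716 and 8213 in tags 3 and 4, and 8053 and 6891 in tags 1 and 2, and in neutrophil-like cells at 6343 and 6292 in tags 3 and 4, and 7316 and 7596 in tags 1 and 2. Dusp2 had a log2 ratio of 0.87 (range over tags 0.78 to 1.02) and was not called. Outside the members, Fth1 took a large part of the neutrophil denominator. Fth1, the ferritin heavy chain, held 85158 to 123599 CPM in 4T1-like cells and 214434 to 283267 in neutrophil-like cells. Its part in these ratios was not tested.

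**Figure D2:**
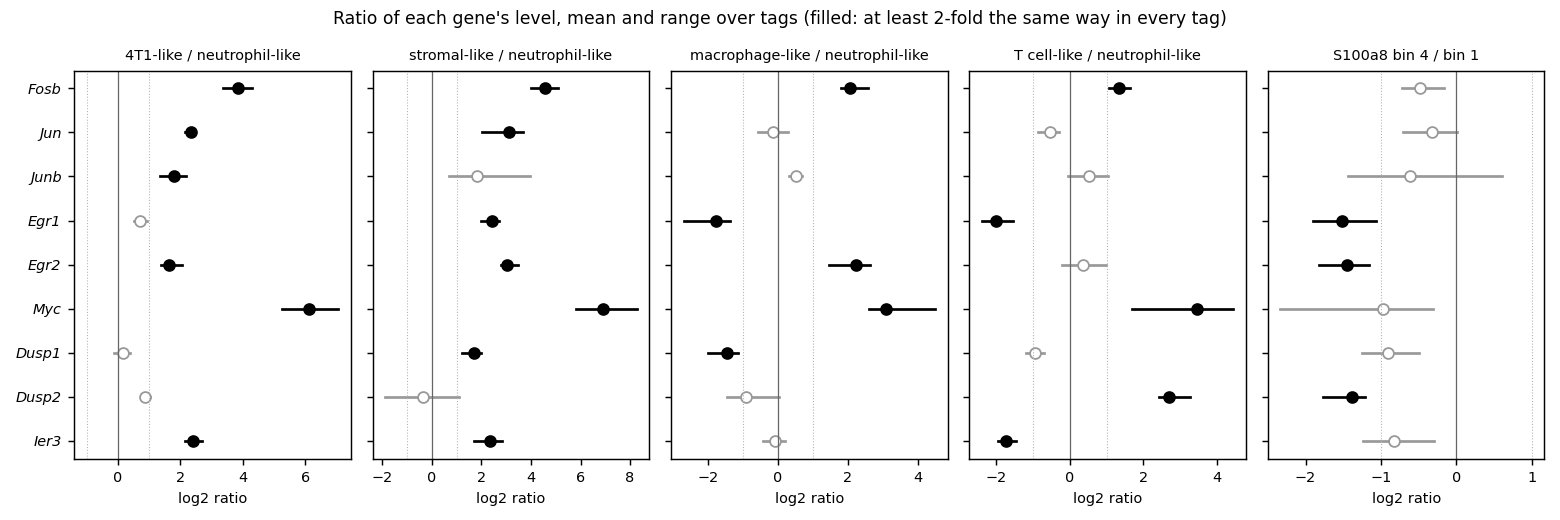
Log2 ratio of each gene's level between 2 classes, or between the highest and lowest S100a8 bin of neutrophil-like cells; points are means over tags, lines the range over tags, dotted lines 2-fold. Filled points are called at 2-fold in every tag: 6 of 9 in 4T1-like, 7 of 9 in stromal-like, 5 of 9 in macrophage-like and 5 of 9 in T cell-like cells, and 3 of 9, all lower, in the highest S100a8 bin.

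Stromal-like cells, few as they were, had 7 of 9 members higher than neutrophil-like cells and 0 lower, where 43.1% of 371 genes were called, 23.7% higher and 19.4% lower. The comparison was chosen after its values were seen. In stromal-like cells Egr1 was at 30933 and 30671 in tags 3 and 4, and 25474 and 44089 in tags 1 and 2, above every value of 4T1-like and neutrophil-like cells. Only the 9 mast or basophil-like cells overlapped it. Dusp1 was at 22455 and 21198 in tags 3 and 4, and 16934 and 29720.1 in tags 1 and 2, likewise above both classes in all 4 tags. Fosb was at 71345 and 40332 in tags 3 and 4, and 47876 and 98849 in tags 1 and 2. These sums rest on 20 and 9 cells in tags 3 and 4 and 23 and 9 in tags 1 and 2, and a single cell gave 42.4% of the Fosb molecules of tag 2. Epcam stood at 70.3 and 0 in tags 3 and 4, and 92.8 in tag 2 as a percentage of its 4T1-like level, with 0 Epcam molecules in tag 4. Egr1 and Dusp1 in tag 4 still lay above both classes.

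In macrophage-like and monocyte-like cells Egr2 and Myc were called higher, and Egr1 lower, than in neutrophil-like cells. Macrophage-like cells had 5 of 9 members called against neutrophil-like cells, 3 higher (Fosb, Egr2, Myc) and 2 lower (Egr1, Dusp1). Over all genes, 51.1% of 393 genes were called, 34.9% higher and 16.3% lower, so the members' count is near the background. In macrophage-like cells Egr2 was at 1805 and 995 in tags 3 and 4, and 2702 in tag 2, with a log2 ratio to neutrophil-like cells of 2.22 (range over tags 1.45 to 2.63). Egr1 was at 1986 and 829 in tags 3 and 4, and 2446 and 2404 in tags 1 and 2 in the same cells, with a log2 ratio of -1.77 (range over tags -2.70 to -1.38). Dusp1 was at 2886 and 1578 in tags 3 and 4, and 2552 and 3332 in tags 1 and 2, with a log2 ratio of -1.46, at least 2-fold lower in each tag. Scaled to all shared molecules, S100a8 and S100a9 included, the calls for Egr1 and Dusp1 were lost and 3 of 9 members were called (Fosb, Egr2, Myc).

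In macrophage-like cells Fosb was at 12379.7 and 7956 in tags 3 and 4, and 12437 and 11354 in tags 1 and 2. Myc was at 719 and 166 in tags 3 and 4, and 554 and 485 in tags 1 and 2. Among macrophage-like cells all 9 members were lowest in tag 4 of the tags in which each was read, though for Jun, Junb and Dusp2 the counting intervals of tag 4 and another tag overlapped. Among genes high in 4T1-like cells, Epcam, Msln, Cdh1 and Lgals1 were also lowest in tag 4 there, and Lmna and Fn1 were not. As a percentage of its 4T1-like level, Msln stood at 6.49 and 0 in tags 3 and 4, and 13.8 in tag 2. Cdh1 stood at 27.1 and 12.6 in tags 3 and 4, and 28.1 in tag 2. Lgals1 stood at 18.1 and 9.15 in tags 3 and 4, and 14.3 and 15.7 in tags 1 and 2. The Epcam level in tag 4, 26.5 CPM, was near that of 3 molecules (19.9 CPM). The part of tumour RNA in the members' values of this class, and the source of Lmna and Fn1, were not tested. Epcam in macrophage-like cells stood at 12.1 and 0.234 in tags 3 and 4, and 9.70 in tag 2 as a percentage of its 4T1-like level, and Lmna at 16.0 and 21.2 in tags 3 and 4, and 19.5 and 22.1 in tags 1 and 2. Fn1 stood at 38.3 and 58.6 in tags 3 and 4, and 57.4 and 38.7 in tags 1 and 2 on the same scale. In macrophage-like cells with under 3 Lmna molecules (57 and 14 in tags 3 and 4, and 31 and 13 in tags 1 and 2) Fosb was at 8324 and 3215 in tags 3 and 4, and 5726 and 8637 in tags 1 and 2. Myc in them was at 223 and 71.4 in tags 3 and 4, and 155 and 466 in tags 1 and 2. Both calls were lost there, and 3 of 9 members were called: Egr2 higher, Egr1 and Dusp1 lower. Egr1 in these cells was at 858 and 738 in tags 3 and 4, and 531 and 1629.7 in tags 1 and 2, more than 1.5-fold below all macrophage-like cells in tags 1 and 3. Dusp1 in these cells was at 2559 and 905 in tags 3 and 4, and 2259 and 1676 in tags 1 and 2, more than 1.5-fold below all macrophage-like cells in tags 2 and 4. Egr2 in them was at 1939 and 1191 in tags 3 and 4, and 3096 in tag 2, above its level in all macrophage-like cells of each tag. The cut counts raw Lmna molecules, so it can also favour shallower cells, and the part of depth in these values was not tested.

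Monocyte-like cells showed Egr2 higher and Egr1 lower in a comparison chosen after the values were seen. Egr2 was at 1961 and 1418 in tags 3 and 4, and 2999.9 in tag 2, with a log2 ratio to neutrophil-like cells of 2.48 (range over tags 1.96 to 2.78). Egr1 was at 1174 and 1607 in tags 3 and 4, and 588 and 2156 in tags 1 and 2, with a log2 ratio of -2.28 (range over tags -3.44 to -1.66). Myc was also called higher, so 3 of 9 were called where 41.4% of 372 genes were called, 29% higher and 12.4% lower. Ier3 was at 10876 and 9644 in tags 3 and 4, and 7209 and 10015 in tags 1 and 2, which overlapped neutrophil-like cells.

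Lymphocytes were marked by Dusp2, the nuclear MAP kinase phosphatase known from activated T cells. In NK cell-like cells it was at 18318 and 13963 in tags 3 and 4, and 12928 and 16241 in tags 1 and 2. In T cell-like cells it was at 5321 and 3841 in tags 3 and 4, and 5069.5 and 4096 in tags 1 and 2, and in neutrophil-like cells at 552 and 606 in tags 3 and 4, and 932 and 768 in tags 1 and 2. The log2 ratio was 2.70 (range over tags 2.41 to 3.27) for T cell-like and 4.44 (range over tags 3.79 to 5.05) for NK cell-like over neutrophil-like cells, and 1.75 (range over tags 1.35 to 1.99) for NK cell-like over T cell-like cells, where Dusp2 was the 1 of 8 members called and 18% of 366 genes were called, 5.19% higher and 12.8% lower. In the order of classes NK cell-like and B cell-like values overlapped, and both lay above all T cell-like values.

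T cell-like cells had 3 of 9 members higher than neutrophil-like cells (Fosb, Dusp2, Myc) and 2 lower (Egr1, Ier3), a count chosen after seeing the values and below the background, where 67.1% of 407 genes were called, 49.4% higher and 17.7% lower. Fosb was at 6403 and 6895 in tags 3 and 4, and 6356 and 6803 in tags 1 and 2, almost equal in the 4 tags. Myc was at 691 and 568 in tags 3 and 4, and 295 and 724 in tags 1 and 2. Egr1 was at 1353 and 1379.9 in tags 3 and 4, and 2186 and 1317 in tags 1 and 2. Ier3 was at 1984 and 2586 in tags 3 and 4, and 2046 and 2446 in tags 1 and 2. Both lay below every neutrophil-like value. The largest share of Ier3 held by 1 T cell-like cell was 41.7% in tag 1. Between CD8 and CD4 T cell-like cells (243 and 297 cells) 0 of 8 members were called, where 17.3% of 342 genes were called, 6.14% higher and 11.1% lower. Dusp2 leaned to CD8 cells with a log2 ratio of 0.94 (range over tags 0.84 to 1.08), and Dusp1 to CD4 cells with -1.58 (range over tags -1.83 to -0.98).

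NK cell-like cells had 1 of 9 members called against neutrophil-like cells (Dusp2), where 44.9% of 379 genes were called, 29.8% higher and 15% lower. Their Ier3 was at 1474 and 100.5 in tags 3 and 4, and 16226 and 17172 in tags 1 and 2, and Egr1 at 1573 and 502 in tags 3 and 4, and 11540.1 and 5705 in tags 1 and 2. The pools did not overlap, but a single cell of the 14 in tag 1 held 92.0% of the Ier3 and 90.2% of the Egr1 molecules. A single cell of the 15 in tag 2 held 62.7% and 51.0%. S100a8 in these cells was at 9805 and 7032 in tags 3 and 4, and 12842 and 21479.7 in tags 1 and 2, higher in tags 1 and 2. Its part in the Ier3 and Egr1 values was not tested.

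Within neutrophil-like cells Ier3, Dusp1 and Egr1 were widespread, and Jun, Dusp2, Egr2, Myc and Junb were detected in a minority of cells. Each cell was thinned to 500 molecules outside S100a8 and S100a9, which kept 7333 of 8545 neutrophil-like and 719 of 733 4T1-like cells. Among thinned 4T1-like cells Ier3 was detected in 92% and 97.5% in tags 3 and 4, and 97.2% and 98.9% in tags 1 and 2. Among thinned neutrophil-like cells it was detected in 80.8% and 80.7% in tags 3 and 4, and 87.0% and 85.2% in tags 1 and 2, and without thinning in 89.8% and 89.9% in tags 3 and 4, and 93.5% and 91.3% in tags 1 and 2. Dusp1 and Egr1 were nearly as widespread. Dusp1 was detected in 79.1% and 80.5% in tags 3 and 4, and 83.0% and 83.7% in tags 1 and 2 of thinned neutrophil-like cells, and Egr1 in 67.6% and 68.6% in tags 3 and 4, and 73.7% and 75.1% in tags 1 and 2. Without thinning Dusp1 was detected in 89.9% and 89.4% in tags 3 and 4, and 92.4% and 93.2% in tags 1 and 2, and Egr1 in 78.9% and 79.4% in tags 3 and 4, and 86.0% and 86.4% in tags 1 and 2. Fosb separated the classes more. Among thinned 4T1-like cells Fosb was detected in 90.2% and 94.9% in tags 3 and 4, and 92.8% and 90.8% in tags 1 and 2. Among thinned neutrophil-like cells it was detected in 41.5% and 43.0% in tags 3 and 4, and 55.3% and 55.2% in tags 1 and 2, and without thinning in 54.3% and 53.6% in tags 3 and 4, and 70.9% and 69.9% in tags 1 and 2. The neutrophil-like shares of Fosb were lower in tags 3 and 4 than in tags 1 and 2. Over the tags read, Jun was detected in 17.5% to 20.7% of thinned neutrophil-like cells (27.4% to 33.8% without thinning), Dusp2 in 15.9% to 20.9% (23.1% to 31.0%) and Egr2 in 11.1% to 15.8% (17.1% to 24.9%). Myc was detected in 0.985% to 2.41% (2.38% to 4.44%) and Junb in 0.628% to 1.08% (1.00% to 2.51%).

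Before thinning, the median depth outside S100a8 and S100a9 was 3298 molecules in 4T1-like and 897 in neutrophil-like cells. No class is known to lack these genes, so free RNA from tumour cells alone was gauged, by Epcam. In neutrophil-like cells Epcam stood at 0.477 and 0.439 in tags 3 and 4, and 1.82 in tag 2 as a percentage of its 4T1-like level. Free RNA from other classes, the numerous neutrophil-like cells among them, is not gauged by Epcam and was not tested. Ier3 in neutrophil-like cells stood at 21.9 and 22.7 in tags 3 and 4, and 15.7 and 16.5 in tags 1 and 2 as a percentage of its 4T1-like level, and Fosb at 5.11 and 5.11 in tags 3 and 4, and 8.99 and 9.79 in tags 1 and 2, both above Epcam in the tags that read it. On the same scale Cdh1, high in 4T1-like cells but present in other classes too, stood at 1.96 and 1.92 in tags 3 and 4, and 2.62 in tag 2. Of the 8 shared members, the median thinned 4T1-like cell held 5 and 5 in tags 3 and 4, and 5 and 6 in tags 1 and 2, and the median thinned neutrophil-like cell held 3 in each of the 4 tags. Among thinned 4T1-like cells 4 or more members were present in 87.1% and 89.9% in tags 3 and 4, and 88.8% and 89.7% in tags 1 and 2. Among thinned neutrophil-like cells they were present in 35.5% and 37.6% in tags 3 and 4, and 49.3% and 47.2% in tags 1 and 2. Cells with none of the 8 were 4.89% and 0% in tags 3 and 4, and 0.803% and 0% in tags 1 and 2 of thinned 4T1-like cells.

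Among neutrophil-like cells, the Egr factors and Dusp2 were lower where S100a8 was higher. S100a8 and S100a9 form calprotectin, which neutrophils load during maturation in the marrow. Neutrophil-like cells of each tag were ranked by the S100a8 share of their molecules and split into 4 equal bins. The lowest bin had median shares of 5.17% to 6.12% and the highest 48.3% to 58.6%, over the 4 tags. The gate took cells from a share of 1%, and the lowest bin began at 1.00% to 1.04%. Whether that bin holds cells other than neutrophils was not tested. Dusp2 averaged 15362 CPM over the tags in NK cell-like and 4582 in T cell-like cells. From low to high, 3 of 9 members were lower by the 2-fold rule (Egr1, Egr2, Dusp2) and 0 higher, where 22% of 327 genes were called, 13.5% higher and 8.56% lower. The members' median log2 ratio was -0.91, against -0.0034 over all genes.

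Egr1 in the lowest bin was at 8568 and 8258 in tags 3 and 4, and 9522 and 8741 in tags 1 and 2. In the second bin it was at 7359.7 and 7195 in tags 3 and 4, and 7625 and 7958 in tags 1 and 2, and in the third at 5457 and 4992 in tags 3 and 4, and 5541 and 7147 in tags 1 and 2. In the highest bin it was at 2302 and 2499 in tags 3 and 4, and 3722 and 4164 in tags 1 and 2. It was lower at each step in all 4 tags, and the log2 ratio of the highest over the lowest bin was -1.51 (range over tags -1.90 to -1.07). In molecules per cell, Egr1 of the lowest bin averaged 7.73 and 7.57 in tags 3 and 4, and 8.86 and 8.57 in tags 1 and 2, and of the highest 2.86 and 3.31 in tags 3 and 4, and 4.71 and 5.39 in tags 1 and 2, although cells of the highest bin were deeper.

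In the lowest bin Dusp2 was at 836 and 858 in tags 3 and 4, and 1642 and 1169 in tags 1 and 2. In the highest it was at 349.7 and 348 in tags 3 and 4, and 483 and 503 in tags 1 and 2, and it too was lower at each step in all 4 tags. Its log2 ratio was -1.38 (range over tags -1.76 to -1.22). In the lowest bin Egr2 was at 524 and 595 in tags 3 and 4, and 579 in tag 2, and in the highest at 149 and 229.8 in tags 3 and 4, and 259 in tag 2, with a log2 ratio of -1.45 (range over tags -1.82 to -1.16). It was not called in neutrophil-like cells with 0 Lmna and under 1% Lgals1, where 2 of 9 members were (Egr1, Dusp2).

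Dusp1 and Ier3 leaned the same way without passing the rule, at log2 ratios of -0.91 (range over tags -1.25 to -0.50) and -0.83 (range over tags -1.25 to -0.30). The change was smallest in tag 2 for both. Jun, at -0.33 (range over tags -0.71 to 0.01), and Fosb, at -0.49 (range over tags -0.72 to -0.16), changed less than Egr1 in every tag. Myc, at -0.97 (range over tags -2.33 to -0.31), was highest in the lowest bin in tags 1, 2 and 3. In tag 1, which gave the -2.33, a single cell held 64 of the 100 Myc molecules of that bin. Scaled to all shared molecules, with S100a8 and S100a9 counted in the denominator, 8 of 9 members were lower. S100a8 and S100a9 fill more of the denominator in the highest bin by construction. Within the highest bin, cells with at least 5 molecules of Chil3, a chitinase-like protein of immature neutrophils, were set apart after the values were seen. They were 176 and 45 cells in tags 3 and 4, and 33 and 32 in tags 1 and 2. Their Egr1 was at 1218 and 1597 in tags 3 and 4, and 2607 and 3833 in tags 1 and 2. In the other cells of that bin Egr1 was at 2625 and 3046 in tags 3 and 4, and 3927 and 4252 in tags 1 and 2. It was thus lower with Chil3 in all 4 tags, though the counting intervals of tag 2 overlapped. Jun was higher with Chil3 in tags 1, 2 and 3 and lower in tag 4. Fosb was lower with Chil3 in tags 1, 3 and 4 and not in tag 2.

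**Figure D3:**
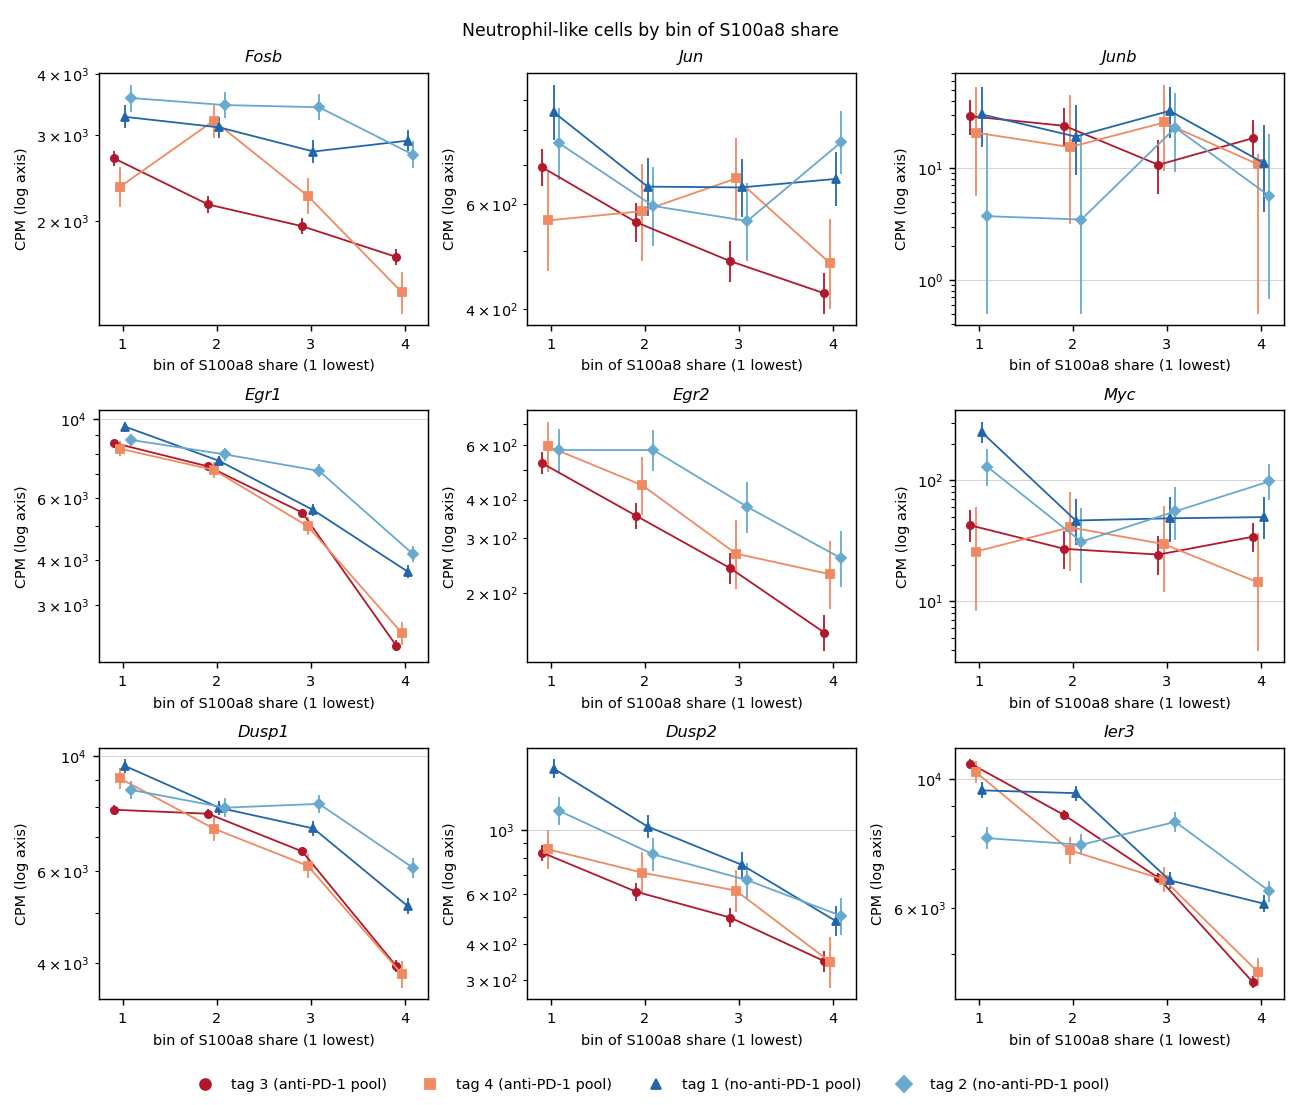
Levels of the 9 genes (CPM outside S100a8 and S100a9, log axis) in neutrophil-like cells by bin of S100a8 share, lowest at left, 1 line per tag with 95% Poisson intervals; the 1 count of 0 (Junb, tag 4, bin 4) is drawn at 3 molecules. Egr1 and Dusp2 are lower at each step in all 4 tags, and Jun and Junb are not.

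Between the pools few members were set apart. Each pool is 1 cartridge, so anti-PD-1 treatment and cartridge cannot be told apart in any pool comparison. In neutrophil-like cells 1 of 9 was called, Myc, lower in the anti-PD-1 pool, where 20.3% of 360 genes were called, 3.06% higher and 17.2% lower. In macrophage-like cells 1 of 9 was called, Dusp2, also lower, where 12% of 324 genes were called, 4.32% higher and 7.72% lower. In 4T1-like cells 0 of 9 were called, where 17.5% of 275 genes were called, 7.64% higher and 9.82% lower. In T cell-like cells 0 of 8 were called, where 14.5% of 359 genes were called, 4.46% higher and 10% lower. The shares of members called were below those of all genes in each of the 4 classes. These counts hang on single tags: leaving out tag 3 gave 5 members in macrophage-like cells (Egr1, Egr2, Dusp1, Dusp2, Myc, all lower), leaving out tag 1 or tag 2 gave 2 in neutrophil-like cells, leaving out tag 1 or tag 4 gave 1 in 4T1-like cells, and leaving out tag 2 or tag 3 gave 2 or 1 in T cell-like cells. The members' median log2 ratio, anti-PD-1 over no-anti-PD-1 pool, was -0.32 in neutrophil-like cells against -0.18 over all genes, -0.38 against -0.23 in macrophage-like cells, 0.07 against -0.20 in 4T1-like cells, and 0.01 against -0.10 in T cell-like cells.

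Myc in neutrophil-like cells was at 31.9 and 26.6 in tags 3 and 4, and 90.8 and 78.7 in tags 1 and 2. The Poisson intervals were 27.2 to 37.2 in tag 3 and 17.0 to 39.6 in tag 4, against 77.8 to 105 in tag 1 and 63.7 to 96.1 in tag 2. In tag 1 a single cell held 37.0% of the Myc molecules. Lmna and Lgals1, high in 4T1-like cells but present in other classes too, differed between the pools in the same direction. As a percentage of its 4T1-like level, Lmna in neutrophil-like cells stood at 0.667 and 0.754 in tags 3 and 4, and 1.79 and 1.73 in tags 1 and 2. On that scale Lgals1 stood at 0.630 and 0.516 in tags 3 and 4, and 1.53 and 1.83 in tags 1 and 2, and Myc itself at 0.879 and 0.753 in tags 3 and 4, and 2.63 and 2.37 in tags 1 and 2. In neutrophil-like cells with 0 Lmna and under 1% Lgals1 Myc was at 25.2 and 24.6 in tags 3 and 4, and 41.0 and 38.3 in tags 1 and 2. The call held there, with values in tags 1 and 2 more than 1.5 times lower than in all neutrophil-like cells. The part of tumour RNA in the Myc values was not tested.

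The other members of neutrophil-like cells were all within 1.5-fold between the nearest tags. Fosb was at 2079 and 2224 in tags 3 and 4, and 3004 and 3264 in tags 1 and 2, a log2 ratio between the pools of -0.54. Dusp2 was at 552 and 606 in tags 3 and 4, and 932 and 768 in tags 1 and 2, a log2 ratio of -0.55. For 7 members (Jun, Fosb, Egr1, Egr2, Dusp1, Dusp2, Ier3) both tags of the anti-PD-1 pool lay below those of the no-anti-PD-1 pool, by less than the rule asks. Ier3 was nearly level, with a log2 ratio of -0.10.

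Dusp2 in macrophage-like cells was at 236 and 219 in tags 3 and 4, and 473 and 789.7 in tags 1 and 2, from 33 molecules in tag 4. With the marker minimums of the gates raised 2-fold, its call was lost and Egr2 was called. The same happened in macrophage-like cells with under 3 Lmna. In 4T1-like cells the log2 ratios were 0.07 for Egr1, 0.09 for Dusp1 and 0.08 for Myc. Ier3, at -0.57, Dusp2, at -0.61, and Fosb, at 0.33, were apart between the pools in both tags of each, short of 1.5-fold. In T cell-like cells the pools overlapped for 7 of the 8 members with enough molecules, Jun being the exception, and Junb had too few molecules to be counted.

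Single neutrophil-like cells with 1 member carried another only slightly more often than independence gives, though widespread members cap that ratio near 1. Over 23 pairs with at least 5 expected cells in every tag read, the median ratio of observed to expected cells with both genes was 1.04, in cells thinned to 500 molecules. Over 10944 pairs of 156 panel genes the median was 1.00, and the middle of that distribution (its quartiles) ran between 0.986 and 1.05, so the members' median lies inside it. With expected shares taken within the S100a8 bins it was 1.03. Among the pairs Egr2 with Dusp2 had the highest ratio, 1.28 (range over tags 1.03 to 1.60), and Jun with Dusp2 the lowest, 0.846 (range over tags 0.666 to 1.00). Egr1 with Egr2 was at 1.10 (range over tags 1.02 to 1.15), and Jun with Fosb, which pair in AP-1, at 1.08 (range over tags 1.01 to 1.16). In the other classes the medians were 1.04 over 28 pairs in 4T1-like cells, 1.07 over 11 in macrophage-like cells and 1.09 over 13 in T cell-like cells. The ratio cannot exceed 1 divided by the larger detection share of the pair, so pairs with a widespread member stay near 1. In tag 2 Ier3 was detected in 98.9% of thinned 4T1-like cells. There Jun, Egr1, Egr2, Dusp2 and Myc each reached that limit with Ier3, at 1.01, and Fosb and Dusp1 stood at 0.999 and 0.997. Ratios this near 1, capped or in sparse counts, are given as a description and do not measure how weakly members go together.

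**Figure D4:**
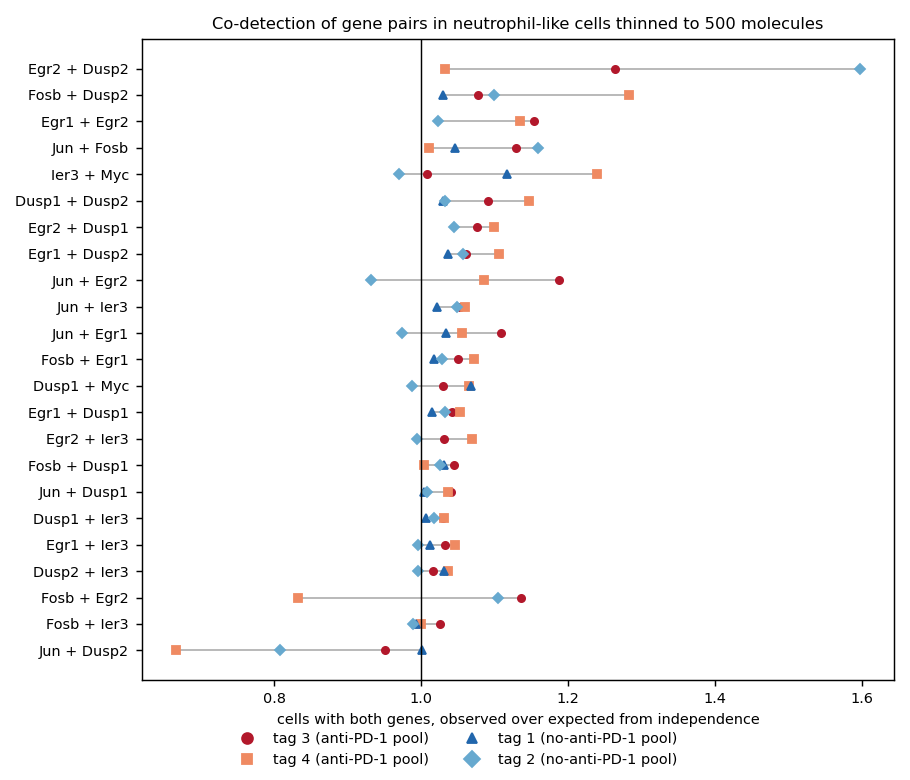
Cells with both genes of a pair, observed over expected from independence, in neutrophil-like cells thinned to 500 molecules; 1 point per tag, the line at 1 marks independence. Most pairs sit slightly right of 1, and Egr2 with Dusp2 spreads most between tags.

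The 5 panel genes detected most with the members in neutrophil-like cells were H2-Aa (1.11), Bcl6 (1.11), Tfrc (1.11), Havcr2 (1.11) and H2-Eb1 (1.10), with the mean ratio over 6 members in brackets. These means were uneven over the members. The highest ratio was with Dusp2 for H2-Aa (1.27), Bcl6 (1.39), Havcr2 (1.61) and H2-Eb1 (1.27), and with Jun for Tfrc (1.29). With Jun, Havcr2 stood at 0.952. H2-Aa and H2-Eb1 encode class II major histocompatibility chains, Bcl6 a transcriptional repressor, Tfrc the transferrin receptor and Havcr2 the receptor TIM-3. Across classes, likeness was measured by Spearman's rho of log2 levels over the tags and 4 classes. These were the classes with at least 30 cells in each tag: neutrophil-like, monocyte-like, T cell-like and 4T1-like. Macrophage-like cells, with 29 in tag 4, were left out. The 16 points, or 12 where a gene is not in tag 1, share libraries and differ mainly between classes. Most like Fosb were Myc (0.96), Pdia4 (0.96) and Cdh1 (0.95). Most like Jun were Vegfa (0.94), Ier3 (0.94) and Fosl1 (0.92), and most like Ier3 were Vegfa (0.95), Fosl1 (0.94) and Jun (0.94). Egr1 and Dusp1 had Cd9 and Cd63 as nearest genes, and each other: Cd9 (0.87), Cd63 (0.84) and Dusp1 (0.83) for Egr1, and Cd9 (0.94), Cd63 (0.86) and Egr1 (0.83) for Dusp1. Dusp2 was most like Hprt (0.93), Cnot2 (0.92) and Stat5a (0.91), Egr2 most like Cxcl1 (0.88), Olfm1 (0.87) and Cxcl16 (0.87), Myc most like Cdh1 (0.99), Fosb (0.96) and Pdia4 (0.94), and the sparse Junb most like Bcar3 (0.82), Tcf4 (0.81) and Cd79a (0.68).

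Related genes were read as counts. Of 24 other immediate early genes listed, the panel measured 2, Fosl1 and Btg1. Of 17 rapid inflammatory genes it measured 15, and of 13 heat shock and oxidative stress genes 3 (Hmox1, Fth1, Vegfa), so a general stress response could not be followed. In the highest against the lowest S100a8 bin 8 of 15 rapid inflammatory genes were lower and 0 higher (Il1a, Il1rn, Cxcl2, Cxcl3, Ccl3, Ccl4, Icam1, Ccrl2), with a median log2 ratio of -1.60, against 8.56% of 327 genes lower and an all-gene median of -0.0034. Of the stress list, 1 of 3 was lower, Vegfa. In 4T1-like against neutrophil-like cells the rapid inflammatory genes ran opposite to the members: 13 of 15 were lower and 1 higher, Cxcl1, a neutrophil attractant, with a median log2 ratio of -4.07, against 34.6% of 376 genes lower, 28.7% higher and an all-gene median of -0.24. There Fosl1, an AP-1 subunit, was higher and Btg1, an antiproliferative factor, lower, while Vegfa was higher and Fth1 lower. Between the pools, neutrophil-like cells had 4 of 15 rapid inflammatory genes lower in the pool given anti-PD-1 (Il1b, Cxcl1, Cxcl3, Il6) and 0 higher, 0 of 2 other immediate early and 0 of 3 stress genes were called, and the median log2 ratio of the rapid inflammatory list was -0.45. Over all 360 genes 17.2% were lower and 3.06% higher, with a median of -0.18, so the list's count is near the background.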

How the data were processed

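Cells of 2 cartridges were read with a targeted immune panel, which counts molecules of chosen genes, on the BD Rhapsody platform. The deposited tables hold molecule counts per cell and gene, corrected for sequencing and amplification errors, and the file headers name version 1.12.1 of the BD pipeline that made them. The submitters' processing notes list Seurat 3.2.0. Aligner and build: not given in the sources used here. The table of tag 1 holds 396 genes after 2 Tigit targets were summed, all of them among the 468 of tags 2 to 4.

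No cell was filtered (the shallowest held 148 molecules), and no doublet caller was run. An alternative left out the 5% deepest cells of each tag and class, which need not remove doublets of shallow cells. Cells that fitted several gates (178), another gate with S100a8 at 10% or more (195) or no gate (871) entered no class. Counts were summed per tag and class with Python 3.11.15, numpy 2.4.6 and pandas 2.3.3, and intervals came from scipy 1.17.1. The scripts were tested on simulated data. Genes needed at least 30 molecules over the tags read. All 9 members are named; other genes are the 3 most like each member, the 5 most co-detected, and members of 3 lists. The members and lists were chosen with earlier results of these data known. Gate minimums were set after seeing the data, over about 4 trial versions with the members' levels in view, though no member enters a gate. The comparisons of T cell-like, stromal-like, NK cell-like and monocyte-like cells, the split by Chil3, the promoters shown, and the alternatives on shared cell indices and on Lmna were also chosen after seeing the data. Each pool is 1 sample and its tags are not replicates, so no test was run.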

Additional observations from a re-analysis of the deposited data

How the results depend on the processing

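Of the alternative values for single members, 349 moved by less than the 95% counting interval of the log2 ratio and 192 moved by more. Of 114 values for called ratios 0 changed sign, and of 427 for ratios not called 41 did. Among these, with S100a8 and S100a9 in the denominator the log2 ratio of macrophage-like over neutrophil-like cells was 0.51 in place of -0.15 for Jun and 0.58 in place of -0.08 for Ier3. Between 4T1-like and neutrophil-like cells 6 members were called under each alternative except that with S100a8 and S100a9 in the denominator, which gave 8. That scale gave 2 members between the pools in neutrophil-like cells (Fosb, Myc), 3 between macrophage-like and neutrophil-like cells and 8 between the extreme S100a8 bins. Macrophage-like cells with under 3 Lmna gave 3 against neutrophil-like cells. Between the pools, neutrophil-like cells gave 2 without tag 1 (Junb, Myc) and 2 without tag 2 (Dusp2, Myc). There, 4T1-like cells gave 1 without tag 1 (Junb) and 1 without tag 4 (Dusp2), macrophage-like cells 5 without tag 3, and T cell-like cells 2 without tag 2 (Egr1, Myc) and 1 without tag 3 (Egr2). The median co-detection ratio was 1.08 in cells thinned to 250 molecules. The cause of these changes was not tested, beyond fewer tags making the pool rule easier to pass. No paired analysis was possible because each pool is 1 sample and its tags carry no shared replicate number. Depth limits Junb most, which had 169 molecules in 8545 neutrophil-like cells. Intervals cover counting error and not the spread between mice, which these pooled tags do not show.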
